A study of Mus musculus with 4 samples.

Results

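The genes described here serve the clearance of dying cells. They are the engulfment receptors Mertk and Axl, the ligands Gas6 (of both receptors) and Pros1 (of Mertk), and the bridging proteins Mfge8 and Thbs1. The others are the integrin subunit Itgav, and Cd47 with its receptor Sirpa, the pair that holds phagocytes back. They were taken as the features with these gene symbols, a rule with no threshold on any measured value although earlier results of these data were known when the list was made, and all 9 were found among the 32285 features of each of the 4 matrices.

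The study profiled single cells from fracture callus and from trabecular bone of C57BL/6J male mice with 10x Genomics droplets. Per the labels, the mice were 20 weeks old, received under the skin either a slow-release pellet of the glucocorticoid prednisolone (6.25 mg/kg/d, the GC group) or placebo (the control group), and gave tissue at week 2; no allele was altered in any group. The labels state the pellet for callus and bone alike, while the methods of the study describe daily injection for the fracture model, so the route in the callus libraries is uncertain. There was 1 library for each tissue and treatment, the number of mice behind each was not given in the sources used here, and flushed marrow was part of the digested tissue, so marrow cells were included.

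Efferocytosis is the engulfment of apoptotic cells by macrophages and by other cells that can act as phagocytes. An apoptotic cell exposes phosphatidylserine, which Gas6 carries to the TAM receptor tyrosine kinases Mertk and Axl, and protein S (Pros1) to Mertk. Mfge8 carries phosphatidylserine to integrins that contain the αv subunit Itgav. Thrombospondin-1 (Thbs1) can also link a dying cell to αv integrins and to CD36, and it binds CD47. CD47 on the surface of a living cell engages SIRPα on the phagocyte and holds engulfment back. In bone, macrophages, osteoclasts and stromal cells carry parts of this system, and spent neutrophils of the marrow are among the cells that are cleared.

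All 9 are protein-coding genes and lie on 4 mouse chromosomes in build GRCm38 (GENCODE M21, matched by Ensembl identifier, 1-based). Chromosome 2 carries Itgav (83724397 to 83806916), Thbs1 (118111876 to 118127133), Mertk (128698956 to 128802894) and Sirpa (129592835 to 129632228), each on the plus strand. Axl (25757273 to 25788705) and Mfge8 (79133768 to 79149060) lie on the minus strand of chromosome 7, and Gas6 (13465374 to 13494490) on the minus strand of chromosome 8. Cd47 (49800533 to 49915010) and Pros1 (62854307 to 62929346) lie on the plus strand of chromosome 16.

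The matrices held between 41239842 and 95852254 unique molecular identifiers (UMIs, single captured transcripts) per library, and 6714 callus control, 6890 callus GC, 3832 trabecular control and 4604 trabecular GC cells were kept. Cells were clustered within each tissue and classes were named from marker genes, so that a class name stands for cells resembling that type. The chondrocyte markers summed to 61979 and 42825 CPM, the usual depth-scaled unit of RNA-seq, over all cells of the callus control and GC libraries but to 2.7 and 5.5 in trabecular bone, where no class of C1q macrophages, osteoclasts, osteoblasts or chondrocytes was found. The glucocorticoid-induced gene Fkbp5 was higher in the GC library of both tissues, at 19.6 against 30.6 CPM in callus and 16.1 against 59.9 CPM in trabecular bone. Libraries shared 7 to 15 cell barcodes per pair. Free RNA from broken cartilage cells was present in callus: the chondrocyte collagen Col2a1 reached 2199 CPM in the B cells of the control library and 870 CPM in those of the GC library. With 1 library per condition, treatment and library cannot be told apart, tissue and library likewise, and no p-value is given; intervals in brackets are exact 95% intervals that cover counting error only.

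The level of a gene in a class is its share of all UMIs of that class in a library, in CPM, and levels are compared between classes for the same gene and not between genes. The heatmap of levels showed that the 9 genes divided over different cells: the TAM receptors and ligands were high in callus C1q macrophages (Mertk, Axl, Gas6), stromal cells of both tissues (Axl, Gas6, Pros1) and callus endothelial cells (Pros1), Mfge8 in chondrocytes, Thbs1 in monocytes and immature neutrophils, Itgav in osteoclasts, Cd47 in blood cell classes and Sirpa in myeloid cells.

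**Figure D1:**
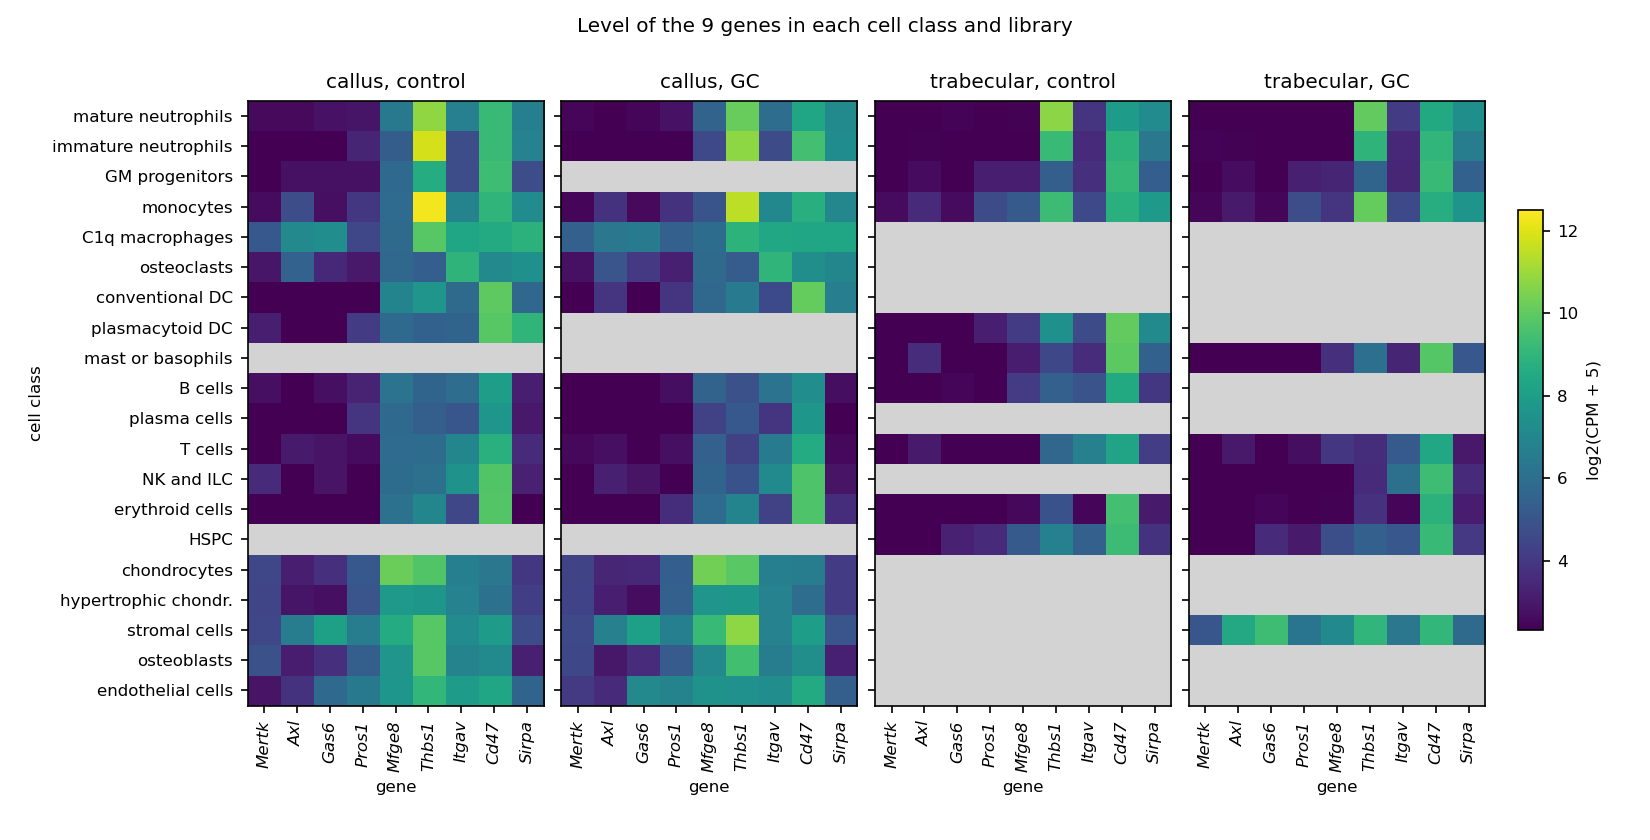
Level of each of the 9 genes (columns) by cell class (rows) in each of the 4 libraries (panels), as log2(CPM + 5) on a colour scale, with grey where a class had under 20 cells in that library. Thbs1 reached 5131 CPM in callus control monocytes, Mfge8 1188 CPM in callus control chondrocytes and Itgav 492 CPM in callus control osteoclasts.

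Mertk, the TAM receptor most tied to macrophage efferocytosis, was sparse. In control callus it stood at 29.9 CPM [17.4 to 47.9, 17 UMIs in 74 cells] in C1q macrophages and at 38.6 CPM [22.9 to 61.0, 18 UMIs in 80 cells] in the same class of the GC library. The next classes of control callus were osteoblasts and osteocytes (24.2 CPM, 17.7 to 32.2), chondrocytes (17.7 CPM, 16.6 to 18.9), stromal and skeletal progenitor cells (17.6 CPM, 11.2 to 26.4) and hypertrophic chondrocytes (16.8 CPM, 14.5 to 19.3), and neighbours in this order had overlapping intervals. Osteoclasts, which arise from the same lineage as macrophages, gave 2.70 CPM in control and 1.96 CPM in GC. Callus monocytes held 3 Mertk UMIs in control and 1 in GC. Callus immature neutrophils held none in either library, which allows levels of up to 7.98 and 6.99 CPM (3 counts of the class total). Cartilage classes held 91.2% of the Mertk UMIs of control callus cells and 83.8% of those of GC callus cells. They made up 39.3% and 42.2% of cells, but a share of UMIs depends on depth per cell as well as on cell number. Per UMI, chondrocytes (17.7 and 16.3 CPM) stood near the level over all callus cells (15.3 and 13.9 CPM). Trabecular cells of the control and GC libraries held only 20 and 18 Mertk UMIs. In control 14 of the 20 came from cells left unnamed, which made up 2.74% of cells. In GC 7 of the 18 came from 35 stromal cells (28.0 CPM) and 4 from unnamed cells.

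Axl, the other TAM receptor of the set, had its highest callus levels in macrophages, stromal cells and osteoclasts. C1q macrophages held 132 CPM [104 to 165] in control callus and 77.2 CPM [54.1 to 107] in GC callus. Stromal cells held 92.6 CPM [76.8 to 111] and 104 CPM [83.99 to 127], so the order of these classes reversed between the libraries while their intervals overlapped in each. Osteoclasts followed with 41.5 CPM [33.4 to 50.9] in control and 27.4 CPM [20.7 to 35.6] in GC, and callus monocytes with 21.8 CPM [16.4 to 28.4] and 9.22 CPM [5.55 to 14.4]. Chondrocytes were low for Axl, at 3.95 and 5.57 CPM, but the cartilage classes together held 37.1% of the Axl UMIs of control callus cells and 43.8% in GC. Macrophages and osteoclasts held 26.6% and 19.7%. No Axl UMI was found in callus B cells of either library, which allows up to 2.39 and 4.46 CPM. In trabecular bone the few stromal cells carried most of the gene's UMIs. The 13 cells of the control library gave 512 CPM and the 35 of the GC library 352 CPM [283 to 434]. The stromal group held 52.6% of the Axl UMIs of control cells and 74.0% of those of GC cells while making up 0.339% and 0.760% of cells. Trabecular monocytes gave 6.90 CPM in control and 3.42 CPM in GC.

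Gas6, the ligand of both receptors, was highest in stromal cells, where Axl was also high. The match did not hold in every class: callus endothelial cells held only 9.24 CPM of Axl in control and 7.07 CPM in GC. Stromal cells of callus held 269 CPM [241 to 298] in control and 262 CPM [230 to 298] in GC. C1q macrophages came next with 155 CPM [124 to 191] in control and 83.6 CPM [59.5 to 114] in GC. Endothelial cells gave 50.8 CPM [31.9 to 77.0] in control and 134 CPM [102 to 174] in GC, so they stood below the macrophages in control callus, with intervals that did not overlap, and above them in GC callus, where the intervals overlapped. Chondrocytes (8.31 and 6.29 CPM), osteoblasts and osteocytes (8.41 and 7.17 CPM), osteoclasts (5.86 and 11.3 CPM) and hypertrophic chondrocytes (1.60 and 1.27 CPM) were far lower. Over all trabecular cells Gas6 was 1.44 CPM in control and 4.85 CPM in GC. The 13 trabecular stromal cells of the control library gave 294 CPM and the 35 of the GC library 649 CPM [553 to 757], a class too small for the comparison. That group held 71.4% of the Gas6 UMIs of control trabecular cells and 89.0% of those of GC trabecular cells.

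Pros1, the other TAM ligand and also a plasma anticoagulant, was spread over the mesenchymal classes. Stromal cells held 95.6 CPM [79.6 to 114] in control callus and 99.4 CPM [80.1 to 122] in GC callus. Endothelial cells held 80.9 CPM [56.3 to 112] and 113 CPM [83.4 to 150], and in both libraries these classes were not separated by their intervals. Osteoblasts and osteocytes (36.8 and 33.0 CPM), chondrocytes (30.3 and 36.5 CPM) and hypertrophic chondrocytes (26.7 and 38.8 CPM) followed. C1q macrophages gave 17.6 CPM [8.44 to 32.4] in control and 38.6 CPM [22.9 to 61.0] in GC, from 10 and 18 UMIs. Among the compared trabecular classes Pros1 was highest in monocytes, at 20.7 CPM [16.6 to 25.5] in control and 21.5 CPM [17.2 to 26.5] in GC. Mature neutrophils held 0 and 1 UMIs. Monocytes thus supplied 70.7% and 61.1% of the Pros1 UMIs of trabecular cells. Trabecular stromal cells, too few for the comparison, held 12 UMIs in 13 control cells and 18 UMIs in 35 GC cells. With the estimated free RNA subtracted, those of the GC library gave 87.8 CPM, above the monocytes.

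Mfge8, the milk fat globule protein that bridges phosphatidylserine to αv integrins, was a chondrocyte transcript in callus. Chondrocytes held 1188 CPM in control and 1299 CPM in GC, and cartilage classes held 97.3% and 93.5% of its UMIs. Stromal cells followed with 376 CPM [343 to 410] in control and 578 CPM [530 to 630] in GC. Hypertrophic chondrocytes (220 and 192 CPM), endothelial cells (201 and 181 CPM) and osteoblasts and osteocytes (195 and 135 CPM) formed a lower step; their intervals overlapped in control callus, as did those of hypertrophic chondrocytes and endothelial cells in GC callus. Blood cell classes of callus lay lower still, with 68.4 and 41.7 CPM in B cells and 81.9 and 42.7 CPM in mature neutrophils. The same blood classes held large amounts of Col2a1, at 2773 CPM in control and 1162 CPM in GC mature neutrophils, and in trabecular bone, which lacked cartilage, control mature neutrophils gave only 0.219 Mfge8 CPM.

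Thbs1, a secreted matrix protein also released by platelets, ranged widely between classes. Callus monocytes held 5131 CPM in control and 2847 CPM in GC. Immature neutrophils held 3643 CPM [3452 to 3841] in control and 1756 CPM [1633 to 1886] in GC, and mature neutrophils 1772 and 1107 CPM. Next in control callus came stromal cells (934 CPM, 883 to 988), osteoblasts and osteocytes (927 CPM, 884 to 971), C1q macrophages (911 CPM, 835 to 993) and chondrocytes (854 CPM, 846 to 862), of which stromal cells and osteoblasts were not separated from each other, and macrophages from none of the others. In GC callus stromal cells were at 1732 CPM and C1q macrophages at 470 CPM. Lymphocytes and osteoclasts were lowest, with control values of 61.8 CPM in NK and innate lymphoid cells, 56.2 CPM in T cells, 42.9 CPM in B cells and 36.5 CPM in osteoclasts. In trabecular bone mature neutrophils led in control (1708 CPM), ahead of monocytes (623 CPM) and immature neutrophils (572 CPM). In the GC library monocytes (1093 CPM) and mature neutrophils (1052 CPM) stood next to each other with overlapping intervals.

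The monocyte class was not uniform for Thbs1. Callus cluster 4, which held 493 of the control and 461 of the GC monocytes, gave 5466 and 3153 CPM, while the small monocyte cluster 47 gave 46.0 and 12.2 CPM. In trabecular bone monocyte cluster 9 gave 1107 CPM in control and 1762 CPM in GC, and cluster 14 gave 248 and 737 CPM.

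Itgav, the αv integrin chain that is also part of the osteoclast attachment receptor, was highest in osteoclasts, at 492 CPM [463 to 522] in control callus and 505 CPM [474 to 536] in GC callus. C1q macrophages were next with 311 CPM [267 to 361] and 343 CPM [292 to 401]. Endothelial cells (236 and 155 CPM), NK and innate lymphoid cells (183 and 142 CPM), stromal cells (144 and 109 CPM) and T cells (124 and 83.9 CPM) followed in overlapping steps. Monocytes (113 and 129 CPM) and chondrocytes (100.1 and 101 CPM) were close to each other. After thinning to 1000 UMIs, 32.1% of control and 36.7% of GC osteoclasts held an Itgav UMI, against 5.08% and 6.30% of B cells. Without thinning the shares were 90.3% and 94.3% against 10.1% and 9.52%, at median depths of 19228 and 15906.5 UMIs in osteoclasts and 1919.5 and 1703.5 in B cells. In trabecular bone monocytes (19.0 and 18.6 CPM) and mature neutrophils (9.96 and 12.1 CPM) were lower than in callus. Trabecular T cells, outside the comparison, gave 104 CPM in 49 control cells (32 UMIs) and 31.8 CPM in 166 GC cells (41 UMIs).

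CD47, the do-not-eat-me signal, was read in every class named here and was high in blood cells. In control callus the conventional dendritic cells (1015 CPM), plasmacytoid dendritic cells (926 CPM), erythroid cells (861 CPM) and NK and innate lymphoid cells (856 CPM) had overlapping intervals at the top. Mature neutrophils (590 CPM, 557 to 625) and immature neutrophils (582 CPM, 508 to 665) were not separated in control callus. Monocytes (503 CPM), T cells (437 CPM), C1q macrophages (373 CPM), endothelial cells (312 CPM), B cells (256 CPM) and stromal cells (235 CPM) lay below them. Lowest of the callus classes named here were osteoblasts and osteocytes (140 CPM), osteoclasts (132 CPM), chondrocytes (76.9 CPM) and hypertrophic chondrocytes (65.1 CPM). In control trabecular bone, classes with at least 20 cells were led by plasmacytoid dendritic cells (1052 CPM) and mast cells or basophils (975 CPM), with overlapping intervals. Then came erythroid cells (691 CPM), hematopoietic stem and progenitor cells (617 CPM), granulocyte-monocyte progenitors (541 CPM), immature neutrophils (478 CPM) and monocytes (437 CPM). B cells (353 CPM), T cells (300 CPM) and mature neutrophils (236 CPM) were lowest. The few trabecular stromal cells were also high, at 714 CPM in 13 control cells (85 UMIs) and 529 CPM in 35 GC cells (132 UMIs).

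Within the trabecular erythroid class the clusters differed in Cd47. Cluster 13 gave 795 CPM in control and 1042 CPM in GC, and cluster 17 gave 1114 and 1215 CPM. Cluster 6 gave 62.9 and 58.7 CPM and held 99 cells of the control and 349 of the GC library.

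Sirpa, the phagocyte receptor for CD47, had its highest levels in myeloid cells and plasmacytoid dendritic cells. C1q macrophages held 457 CPM [404 to 517] in control callus and 324 CPM [274 to 380] in GC callus. Plasmacytoid dendritic cells of control callus gave 501 CPM [417 to 596], which overlapped the macrophages. Osteoclasts (168 and 121 CPM), monocytes (144 and 127 CPM), immature neutrophils (109 and 149 CPM) and mature neutrophils (101 and 136 CPM) formed the next group. Chondrocytes (10.7 and 12.54 CPM) and B cells (3.98 and 1.49 CPM) were near the bottom. The cartilage classes together still held 31.8% of the Sirpa UMIs of control callus cells and 29.8% in GC. After each cell with at least 1000 UMIs was thinned to 1000, 42.9% of control and 22.8% of GC C1q macrophages held a Sirpa UMI. Among B cells 0 of 590 control and 0 of 349 GC cells did [up to 0.623% and 1.05%]. Without thinning the shares were 74.3% and 63.8% of macrophages and 0.643% and 0.265% of B cells. Median depths in macrophages were 6371.5 and 5132.5 UMIs. Trabecular monocytes gave 215 CPM in control and 190 CPM in GC, mature neutrophils 145 and 161 CPM, and granulocyte-monocyte progenitors 36.1 and 40.2 CPM.

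The class of C1q macrophages joined clusters that differed in these genes. Cluster 49 held Mertk at 33.6 CPM in control and 45.5 CPM in GC, and Sirpa at 545 and 357 CPM. Its Axl level was 112 and 64.9 CPM, below the 132 and 77.2 CPM of the whole class. Cluster 17 was lower for Mertk, at 0 and 6.8 CPM, and for Sirpa, at 127 and 144 CPM. It held Thbs1 at 1602 and 1383 CPM. The 29 GC cells of cluster 50, which also held 14 control cells, gave Mertk 60.1 CPM, Gas6 174 CPM, Sirpa 451 CPM and Thbs1 90.1 CPM. Clusters 49 and 17 held 33 and 27 control cells and 22 and 29 GC cells. The make-up of the class thus differed between the libraries, and none of these clusters held 50 cells in each library. The part of this make-up in the GC over control values of the class was not tested.

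Callus and trabecular bone were set side by side in control libraries for classes found in both. Thbs1 was 8.24-fold higher in callus than in trabecular monocytes [7.90 to 8.60] and 6.37-fold higher in callus than in trabecular immature neutrophils [5.99 to 6.76]. In mature neutrophils the values were 1772 and 1708 CPM, a ratio of 1.04 with an interval from just under 1 to 1.08. Cd47 in mature neutrophils was 590 CPM in callus and 236 CPM in trabecular bone, with a ratio interval of 2.33 to 2.68. Itgav was 5.92-fold higher in callus monocytes [4.60 to 7.69], and Axl 3.16-fold [1.98 to 5.15]. In the other direction, Pros1 was lower in callus than in trabecular monocytes, at a ratio of 0.51 [0.31 to 0.79], and so was Sirpa, at 0.67 [0.59 to 0.76] in monocytes and 0.70 [0.60 to 0.81] in mature neutrophils. Callus classes carried cartilage RNA that trabecular classes did not, and its part in these ratios was not tested.

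The question of treatment was then asked within each class: whether GC and control cells of the same class differed in these genes. A ratio is log2 of (CPM + 5) in GC over the same in control, and a gene was called past the fold where the ratio was at least 1 or at most -1 and both libraries together held at least 50 UMIs of it. Over 13 callus classes, 69 of 117 pairs of gene and class had enough UMIs, 1 rose and 3 fell. Over 5 trabecular classes, 21 of 45 pairs had enough, 0 rose and 2 fell. Counting intervals lay above 1 for 13 and below 1 for 24 of the callus pairs, and above 1 for 6 and below 1 for 7 of the trabecular pairs. The share of all genes with such intervals was not computed, so these interval counts cannot be read as particular to the members.

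**Figure D2:**
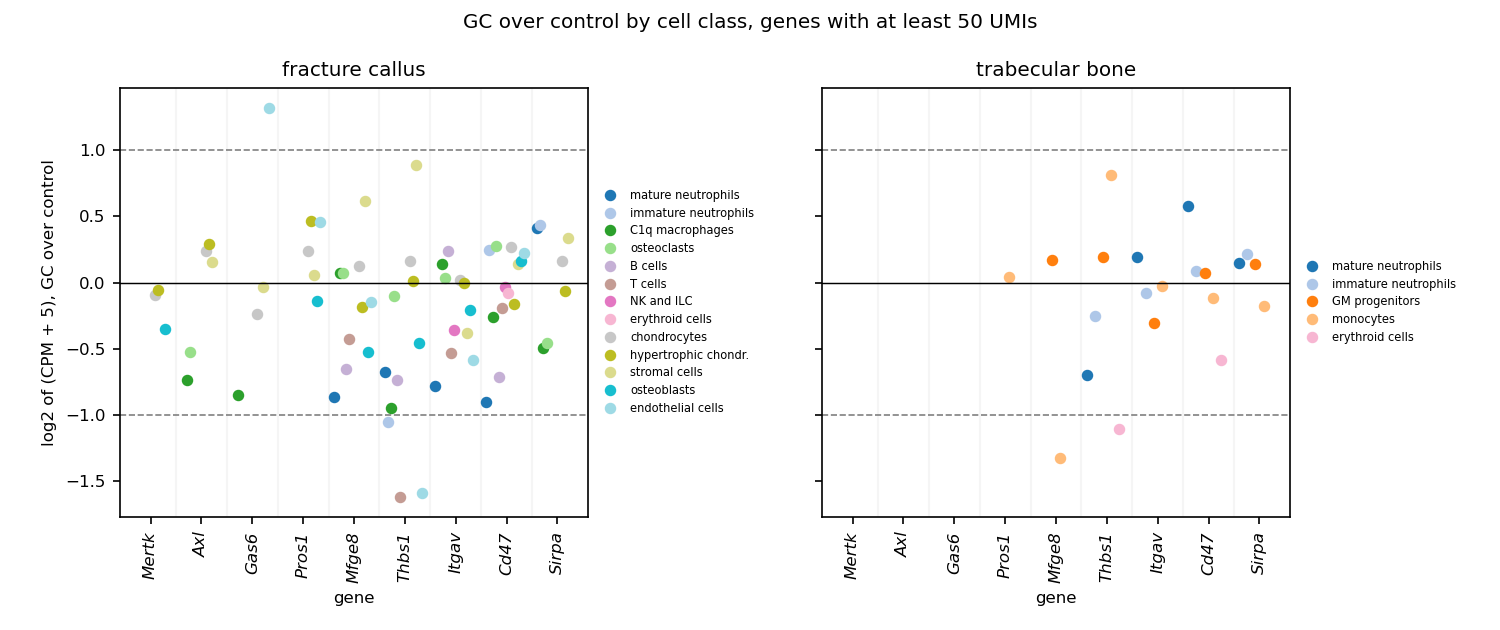
Ratio of GC over control for each gene (horizontal axis groups) in each compared class (points), as log2 of (CPM + 5), callus and trabecular bone in separate panels, for pairs with at least 50 UMIs. Dashed lines mark a 2-fold difference; of 90 points 1 lies above the upper and 5 below the lower line.

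These counts stood against those over all genes of the same class. In callus, 0 of 4 members were past the fold in B cells, where 4.97% of all genes tested were. The members past the fold and the percent of all genes were 0 of 7 against 4.98% in C1q macrophages, 0 of 2 against 2.78% in NK and innate lymphoid cells, and 1 of 4 against 2.87% in T cells. In the skeletal classes they were 0 of 9 against 0.719% in chondrocytes, 0 of 8 against 0.842% in hypertrophic chondrocytes, 0 of 6 against 2.27% in osteoblasts and osteocytes, and 0 of 8 against 2.93% in stromal and skeletal progenitor cells. They were 2 of 6 against 4.14% in endothelial cells, 0 of 1 against 9.05% in erythroid cells, and 0 of 6 against 1.72% in osteoclasts. In neutrophils of callus they were 1 of 3 against 11.5% for immature and 0 of 5 against 7.96% for mature cells. In trabecular bone they were 1 of 2 against 6.36% in erythroid cells, 0 of 5 against 0.261% in granulocyte-monocyte progenitors, 0 of 4 against 1.16% in immature neutrophils, 0 of 4 against 4.39% in mature neutrophils, and 1 of 6 against 0.773% in monocytes. With so few members per class, a single call sets the share.

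Thbs1 accounted for 4 of the 6 calls, all of them lower in GC. In callus immature neutrophils it fell from 3643 to 1756 CPM, with a log2 ratio at -1.05 and a fold of 0.482 [0.440 to 0.527]. Cells with a Thbs1 UMI numbered 116 of 135 in control and 114 of 165 in GC, and after thinning to 1000 UMIs the shares were 74.2% [65.9 to 81.5] and 53.8% [45.7 to 61.7], while B cells gave 4.07% and 3.15%. The median depth of the immature neutrophils was 2471 UMIs in control and 2252 in GC, and that of the B cells 1919.5 and 1703.5. This call was present under every one of the 16 settings that gave a value. In the same cells the immediate early gene Fos, which also responds to dissociation, stood at 596 CPM in control and 103 CPM in GC, and Col2a1 at 1845 and 566 CPM. With the estimated free RNA subtracted the Thbs1 values were 3772 and 1776 CPM, still past the fold, while the part of Fos was not tested.

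The other Thbs1 calls in callus came from cells with lower levels. In T cells it fell from 56.2 CPM (51 UMIs) to 14.9 CPM (18 UMIs), with a log2 ratio at -1.62 and a fold of 0.266 [0.146 to 0.463]. In endothelial cells it fell from 527 to 172 CPM, with a log2 ratio at -1.59 and a fold of 0.326 [0.247 to 0.427], with a Thbs1 UMI in 32 of 53 control and 16 of 79 GC cells. Free cartilage RNA moved in the same direction: Col2a1 fell from 2077 to 659 CPM in T cells and from 1588 to 337 CPM in endothelial cells, and the 8 markers of chondrocytes, all detected, summed to 3210 and 1094 CPM in T cells and to 2431 and 601 CPM in endothelial cells. With the estimated free RNA subtracted, Thbs1 was 15.2 CPM in control and 0 CPM in GC T cells, so most of the T cell level was in the estimate, and 514 and 165 CPM in endothelial cells. The endothelial pair stayed past the fold under that subtraction. The T cell pair did so only with the whole GC level, and most of the control level, removed by the estimate. For T cells the subtraction thus cannot decide whether the call holds. The T cell call was lost with cells thinned to 1000 UMIs, at a log2 ratio of -0.77. The endothelial call was lost under that thinning and with doublets kept. Its log2 ratio was still -0.999 or lower under every setting that gave a value.

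Thbs1 was also lower, short of the fold, in C1q macrophages (911 to 470 CPM, log2 ratio -0.95), callus mature neutrophils (1772 to 1107 CPM, -0.68) and trabecular mature neutrophils (1708 to 1052 CPM, -0.70). The macrophage clusters differed widely in Thbs1 and in their cell numbers between libraries, and the part of this in the macrophage value was not tested. In the callus monocyte class, compared only by cluster because a marker of another class was among its leading genes, cluster 4 gave 5466 CPM in control and 3153 CPM in GC, a log2 ratio of -0.79 [fold 0.56 to 0.60]. It was higher, also short of the fold, in stromal cells of callus (934 to 1732 CPM, log2 ratio 0.89, fold 1.85, 1.72 to 2.00) and in trabecular monocytes (623 to 1093 CPM, 0.81, fold 1.76, 1.67 to 1.84). Fos stood at 790 CPM in control and 427 CPM in GC trabecular mature neutrophils, at 568 and 490 CPM in trabecular monocytes, and at 2950 and 2828 CPM in callus stromal cells. The plot of Thbs1 by class shows a direction that depended on the class.

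**Figure D3:**
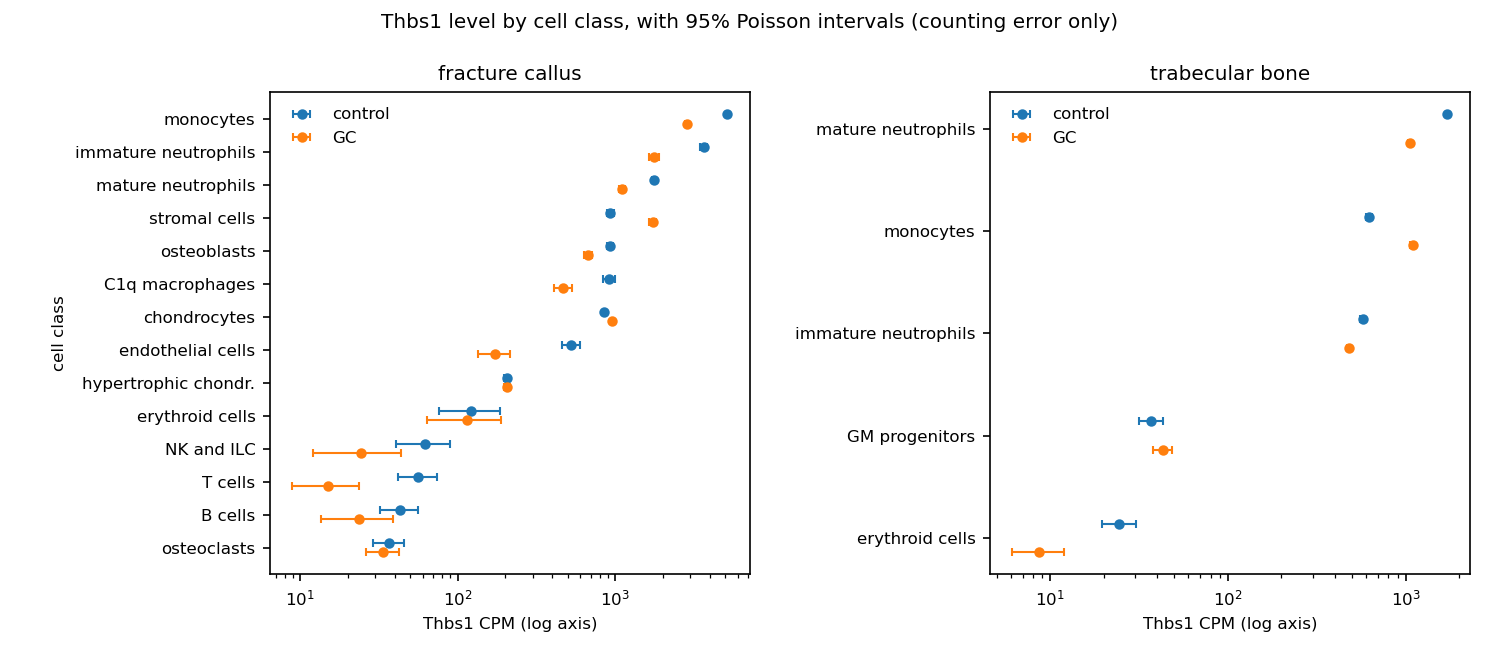
Thbs1 level (CPM, log axis) by class in control and GC libraries, callus and trabecular bone in separate panels; points are the 1 library of each condition and bars are exact 95% Poisson intervals. GC points lie below control points in callus immature neutrophils (1756 against 3643 CPM) and above them in callus stromal cells (1732 against 934 CPM) and trabecular monocytes (1093 against 623 CPM).

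Clusters within a class moved these values. Callus mature neutrophils came mainly from cluster 3 in control (988 cells, against 34 in GC) and from cluster 0 in GC (1180 cells, against 563 in control). Within cluster 0, Thbs1 was 2340 CPM in control and 1128 CPM in GC, a log2 ratio of -1.05, so the difference was larger there than over the whole class. In trabecular mature neutrophils the clusters likewise differed in make-up, and within cluster 2 Thbs1 was 1563 and 1318 CPM, a log2 ratio of -0.25. Among trabecular immature neutrophils, cluster 7 gave 135 CPM in control and 369 CPM in GC, against 572 and 480 CPM for the class.

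The other calls rested on few cells. Gas6 rose in callus endothelial cells from 50.8 CPM (22 UMIs) to 134 CPM (57 UMIs), with a log2 ratio at 1.32 and a fold of 2.64 [1.59 to 4.54]. The 3 cells with the most Gas6 held 12 of the 22 control and 37 of the 57 GC UMIs, and 11 of 53 and 17 of 79 cells had any. Without those 3 cells of each library, an alternative chosen after seeing the data, the values were 27.4 and 51.2 CPM and the log2 ratio was 0.79. With cells thinned to 1000 UMIs the pair was no longer called, but its ratio stayed past the fold and only the minimum of UMIs was missed. The log2 ratio was 1.12 or higher under every planned setting that gave a value, which leaves out the alternative without the 3 cells.

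Mfge8 fell in trabecular monocytes from 31.4 to 9.52 CPM, with a log2 ratio at -1.33 and a fold of 0.303 [0.207 to 0.437]. A single control cell held 83 of the 132 UMIs. Without the 3 cells of each library with the most Mfge8 the values were 10.7 and 8.19 CPM and the log2 ratio was -0.25. Cells thinned to 1000 UMIs gave a log2 ratio of 0.05. The call was thus lost without those cells, and also with a mean over cells and with a pseudocount of 20 CPM.

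Thbs1 fell in trabecular erythroid cells from 24.4 to 8.68 CPM, with a log2 ratio at -1.11 and a fold of 0.355 [0.233 to 0.531]. In control, 1 cell held 29 of the 83 UMIs and 3 cells held 47, and without the 3 highest cells of each library the values were 10.9 and 7.57 CPM, a log2 ratio of -0.34. The median log2 ratio over all 6049 genes tested in this class was -0.61, with 8 genes past the fold upward and 377 downward. The call was present under 12 of 18 settings, which include the lower minima of UMIs and the fold of 1.5 that could not lose it. Joining C1q macrophages with monocytes left the erythroid class unchanged. For Thbs1 in callus endothelial cells, T cells and immature neutrophils the log2 ratios without the highest cells were -2.43, -1.55 and -1.09. Of the 6 calls, 3 were thus kept, and 1 pair was added, Gas6 in C1q macrophages, at 120 and 52.3 CPM and a log2 ratio of -1.13.

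**Figure D4:**
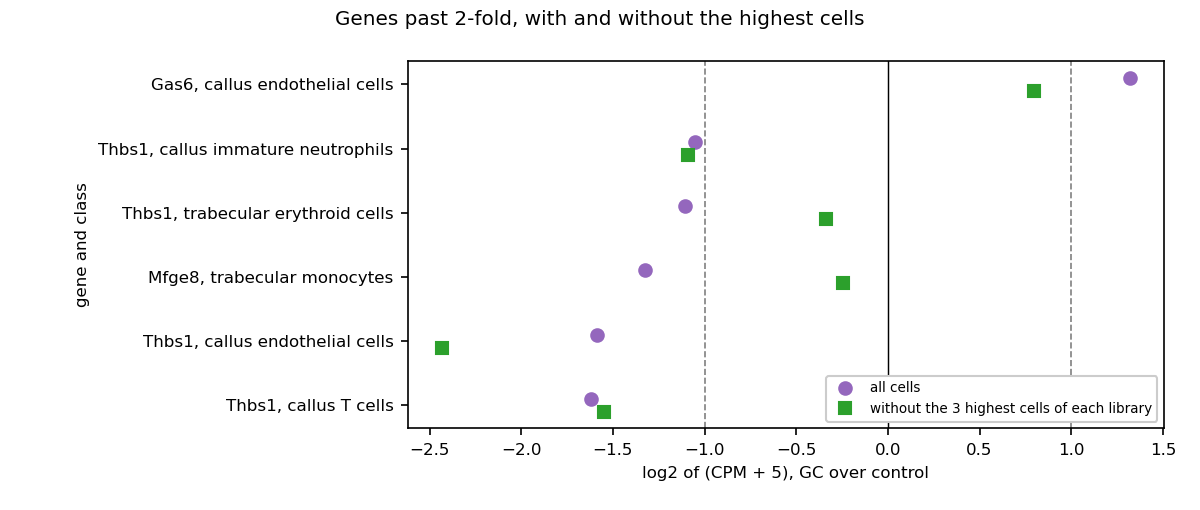
Log2 of (CPM + 5), GC over control, for the 6 pairs of gene and class past 2-fold, with all cells (circles) and without the 3 cells of each library that held the most UMIs of the gene (squares). Mfge8 in trabecular monocytes moved from -1.33 to -0.25 and Thbs1 in trabecular erythroid cells from -1.11 to -0.34, while Thbs1 in callus immature neutrophils moved from -1.05 to -1.09.

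No member of the TAM axis other than Gas6 was past the fold. Mertk had enough UMIs in 3 callus classes and in no trabecular one, and its intervals included 1 in all 3. Axl was lower in GC C1q macrophages (132 to 77.2 CPM) and osteoclasts (41.5 to 27.4 CPM), with intervals of the fold below 1, and in monocyte cluster 4 (19.6 to 8.19 CPM, fold 0.22 to 0.76). Gas6 was lower in GC C1q macrophages (155 to 83.6 CPM) and gave overlapping intervals in stromal cells (269 and 262 CPM). The share of each cluster in the C1q macrophages differed between libraries, and its part in the Axl and Gas6 values was not tested. Pros1 was higher in hypertrophic chondrocytes, at 26.7 and 38.8 CPM, a fold of 1.45 [1.25 to 1.69], and in chondrocytes, at a fold of 1.21 [1.11 to 1.30]. In chondrocyte cluster 10 Gas6 was 13.6 CPM in control and 3.42 CPM in GC, and cluster 1 of that class held 3 control and 514 GC cells.

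Cd47 gave opposite directions in the mature neutrophils of the tissues, both short of the fold. In callus it was 590 CPM [557 to 625] in control and 313 CPM [285 to 344] in GC, with a log2 ratio at -0.90 and a fold of 0.531 [0.475 to 0.593]. In trabecular bone it was 236 CPM [226 to 246] in control and 354 CPM [341 to 367] in GC, with a log2 ratio at 0.57 and a fold of 1.499 [1.42 to 1.59]. Shares of thinned cells with a Cd47 UMI went the same ways, from 37.3% to 24.02% in callus and from 20.0% to 28.8% in trabecular bone (43.3% to 26.4% and 63.5% to 69.1% without thinning).

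By cluster, the values in callus differed. Control-rich cluster 3 gave Cd47 at 730 CPM in its control cells and 455 CPM in its 34 GC cells, while cluster 0 gave 340 CPM in control and 309 CPM in GC, a log2 ratio of -0.14 whose fold interval (0.77 to 1.07) included 1. In trabecular cluster 2 the values were 247 and 337 CPM, a log2 ratio of 0.44. Over the trabecular class the median log2 ratio of all genes was 0.29.

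Cd47 was higher in GC, short of the fold, in chondrocytes (76.9 to 93.7 CPM, fold 1.22, 1.16 to 1.28), osteoclasts (132 to 160 CPM, fold 1.22, 1.03 to 1.43) and trabecular immature neutrophils (478 to 509 CPM, fold 1.06, 1.021 to 1.11). It was lower in GC in callus B cells (256 to 155 CPM, log2 ratio -0.71) and trabecular erythroid cells (691 to 458 CPM, -0.59), the latter beside a class median of -0.61 over all genes and a shift of cells toward cluster 6. The fold intervals included 1 in NK and innate lymphoid cells (856 and 836 CPM), osteoblasts and osteocytes (140 and 158 CPM) and endothelial cells (312 and 365 CPM). Sirpa was lower in GC in C1q macrophages (log2 ratio -0.49) and osteoclasts (-0.46) and higher in callus mature neutrophils (0.41), none past the fold. The part of cluster make-up in the macrophage value was not tested. Itgav was lower in GC in callus mature neutrophils (102 to 57.0 CPM, -0.78) and endothelial cells (236 to 155 CPM, -0.58) with overlapping intervals in osteoclasts (492 and 505 CPM). Within cluster 0 of the callus mature neutrophils, Itgav was 62.0 and 58.1 CPM, a log2 ratio of -0.09 (fold 0.64 to 1.38). Sirpa in that cluster was 128 and 140 CPM, a log2 ratio of 0.12 (fold 0.85 to 1.41).

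A wider list of 66 efferocytosis genes, chosen with earlier results of these data known, was read the same way. In callus 401 pairs of gene and class had enough UMIs, of which 2 rose and 12 fell, and in trabecular bone 183 had enough, of which 3 rose and 1 fell. That is 3.49% of the list pairs in callus, beside 2.94% of the 69080 pairs of all genes in the same classes, and 2.19% in trabecular bone, beside 2.31% of 38019. Of 15 other engulfment receptors, 0 of 42 callus pairs were past the fold, and of 6 genes of lipid exposure 0 of 31. Engulfment machinery gave 4 of 137, all lower, and apoptotic cell and bridging ligands gave 3 of 43, all lower. Receptor shedding and control gave 2 higher and 3 lower of 84, and the other do-not-eat-me and inhibitory genes 2 lower of 64. In trabecular bone engulfment machinery gave 1 higher of 62, engulfment receptors 1 higher of 20, receptor shedding and control 1 higher of 30, do-not-eat-me and inhibitory genes 1 lower of 36, and the remaining groups 0 of 14 and 0 of 21. In C1q macrophages 0 of 32 genes of the list were past the fold.

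The genes of that list that fell included the glucose transporter Slc2a1 and the cytokine signalling inhibitor Socs3. Slc2a1 fell in callus immature neutrophils (165 to 46.6 CPM, log2 ratio -1.72), mature neutrophils (280 to 120 CPM, -1.19), osteoblasts and osteocytes (116 to 35.8 CPM, -1.57) and stromal cells (96.4 to 39.3 CPM, -1.19). Socs3 fell in callus immature neutrophils (144 to 32.6 CPM, -1.98), mature neutrophils (385 to 131 CPM, -1.52) and NK and innate lymphoid cells (217 to 104 CPM, -1.03), but rose in trabecular mature neutrophils (81.9 to 178 CPM, 1.07). The lectin Lgals3, which can tag dying cells, fell in callus T cells (124 to 42.4 CPM, -1.44) and endothelial cells (150 to 28.3 CPM, -2.22). Col2a1 fell in the same classes, from 2077 to 659 CPM in T cells and from 1588 to 337 CPM in endothelial cells. The part of free RNA in the Lgals3 values was not tested for this gene on its own. The integrin ligand Edil3 fell in osteoblasts and osteocytes (35.2 to 12.9 CPM, -1.17).

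Pparg, a nuclear receptor of lipid metabolism, rose in callus endothelial cells (25.4 to 94.2 CPM, log2 ratio 1.71), and Nr1h2, an oxysterol receptor, rose in callus B cells (27.8 to 68.4 CPM, 1.16). The inhibitory B cell lectin Siglecg fell in the same B cells (82.7 to 35.7 CPM, -1.11). B2m, the light chain of MHC class I, fell in erythroid cells of callus (442 to 137 CPM, -1.66) and of trabecular bone (236 to 86.6 CPM, -1.40). The callus value rested on 76 and 18 UMIs, in a class with 15 genes past the fold upward and 46 downward. In the trabecular class the median log2 ratio over all genes was -0.61, with 8 genes past the fold upward and 377 downward. In trabecular mature neutrophils the scavenger receptor Stab1 (4.82 to 25.2 CPM, 1.62) and the mitochondrial carrier Ucp2 (341 to 806 CPM, 1.23) rose.

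Genes whose pattern was most like each member were found by Pearson's r of log2(CPM + 5) over 41 points of class and library, among 7904 genes. For Mertk they were Pdgfc (0.87), Dab2 (0.86) and Olfml3 (0.86). For Axl they were Anpep (0.93), Lpl (0.86) and Lrp12 (0.85), and for Gas6 they were Igf1 (0.92), Rnase4 (0.91) and Ecm1 (0.85). For Pros1 they were Dock1 (0.92), Laptm4a (0.89) and Fcgrt (0.89). The points share libraries, depth and free RNA, so r is a description only.

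Mfge8 was most like the matrix genes Timp3, Col6a2 and Col6a1 (0.94 each), and Thbs1 like Lamp2 (0.85), Ier3 (0.84) and Trib1 (0.83). Itgav was nearest to Tulp4, Map3k2 and Baiap2 (0.90 each), Cd47 to Iqgap2 (0.81), Atp8a1 (0.80) and Lgals9 (0.78), and Sirpa to Grn (0.89), Skap2 (0.88) and Cfp (0.87). Among the members themselves the highest values were 0.83 for Axl with Gas6 and 0.77 for Mertk with Pros1, and the lowest was -0.56 for Cd47 with Mertk.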

How the data were processed

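Gene by cell matrices of UMI counts, deposited by the authors, were analysed. The submitters' processing notes name Cell Ranger 5.0.1, Seurat 3.2.0 and build mm10, whereas the file headers name Cell Ranger 4 (4.0.0 in callus GC). Of the deposited count matrices 3 list 6794880 barcodes each and callus GC lists 7762 that were already called as cells, with at least 500 UMIs. The other libraries were called by a cutoff at 10% of the 99th percentile of the top 3000 barcodes plus a Monte Carlo test against free RNA (ranks 45001 to 90000, 10000 simulations, at least 500 UMIs, false discovery rate 0.01), so calling differed between the callus libraries. Cells with under 200 genes or over 10% mitochondrial UMIs and scored doublets (0.8% per 1000 cells) were removed. Clustering ran per tissue by the Leiden method at resolution 1, over 15 neighbors per cell in 30 components from the 2000 most variable genes. A class needed at least 3 markers at 2-fold in at least 10% of a cluster's cells, and classes with at least 50 cells in each library were compared. UMIs were summed per class and library and divided by the class total (CPM).

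No replicates exist, so calls rest on a fixed 2-fold with a pseudocount of 5 CPM and at least 50 UMIs, beside the share of all genes past it. Intervals are exact (Poisson, Clopper-Pearson and conditional binomial for ratios). Shares of cells with a UMI were given after thinning to 1000 UMIs and without. Cells with fewer than 1000 UMIs were left out of the thinned values. Cell numbers with a UMI are unthinned. The text names all 9 members, genes of the wider list past the fold (at most 3 up and 3 down per class, with at least 20 CPM) and the 3 genes most like each member with at least 50 CPM in 1 class. The members, gene lists and tests were chosen with earlier results of these data known. Steps were tested on simulated data. The software was leidenalg 0.10.2, igraph 0.11.9, matplotlib 3.10.9, scipy 1.17.1, numpy 2.4.6, scikit-learn 1.9.0, pandas 2.3.3 and Python 3.11.15.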

Additional observations from a re-analysis of the deposited data

Results flagged for a closer look

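Cd47 in mature neutrophils moved in opposite directions in the tissues: the log2 ratio of GC over control was -0.90 in callus and 0.57 in trabecular bone. With 1 library per tissue and treatment this difference was not tested. In callus cluster 0 the ratio for Cd47 was -0.14.

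Thbs1 reached 517 CPM in the stromal and skeletal progenitor cells of the trabecular GC library, a class outside the comparisons because it held 35 cells there and 13 in the control library. The control cells gave 134 CPM, and the difference was not tested.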

How the results depend on the processing

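The 90 log2 ratios of the members were recomputed under the planned settings, without the alternatives added after seeing the data. Of 1294 values 1127 moved by less than the counting interval and 166 moved by more. In 1 case a ratio past the fold changed sign: Mfge8 in trabecular monocytes, at 0.0479 with cells thinned to 1000 UMIs. Of 36 highest levels recomputed to 416 values, the class remained the highest in 367.

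The counts of pairs of gene and class past the fold depended on the settings as follows, for member pairs higher and lower (1 and 3 in callus, 0 and 2 in trabecular bone) and for pairs of the wider list (2 and 12, 3 and 1). Calling cells by the UMI cutoff alone gave 0 and 1 member pairs in callus, and 0 and 2 list pairs in callus against 1 and 2 in trabecular bone. In callus this setting changed the control library only, because callus GC was deposited as called cells. It set 2916 control cells (median 24073 UMIs) against 6890 GC cells (median 3268.5 UMIs). At least 500 genes gave 0 member pairs and 1 list pair higher in callus and 0 list pairs lower in trabecular bone. At most 5% mitochondrial UMIs gave 5 and 7 list pairs in callus and 2 lower in trabecular bone. Keeping doublets gave 5 list pairs higher in callus, and Leiden resolution 0.5 gave 6 higher in trabecular bone. The mean of each cell's CPM gave 2 member pairs and 9 list pairs higher in callus, and 0 member pairs and 2 list pairs lower in trabecular bone. Thinning gave 5 list pairs lower in callus, and 0 member pairs lower and 7 list pairs higher in trabecular bone. Subtracting free RNA gave 2 member pairs higher in callus and 1 lower in trabecular bone. CPM without abundant genes gave 1 member pair and 0 list pairs lower in trabecular bone, and median ratio scaling gave 1 member pair lower and 1 and 0 list pairs there. Joining C1q macrophages with monocytes left trabecular monocytes out of the comparison, because that tissue had no C1q macrophage class. The 1 member pair lower in trabecular bone under this setting thus comes from the missing class. A pseudocount of 20 gave 1 list pair higher in callus, and 0 member pairs lower and 1 list pair higher in trabecular bone, while a pseudocount of 1 gave 3 list pairs lower there. A minimum of 20 UMIs gave 8 list pairs higher in callus, and no minimum gave 4 and 6 member pairs and 15 and 36 list pairs in callus. A fold of 1.5 gave 3 and 14 member pairs and 29 and 34 list pairs in callus, and 1 and 4 member pairs and 14 and 12 list pairs in trabecular bone. The causes of the other changes were not tested. The share of all genes past the fold was not computed under these settings. The counts thus show only how they depend on the settings, not whether the members or the list differ from other genes.

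No paired analysis was possible because each tissue and treatment has 1 library. For the same reason no library was left out in turn. Mertk had enough UMIs in 3 callus classes and in no trabecular class.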
